A study of Mus musculus with 10 samples.

Results

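VG3 amacrine cells are interneurons of the inner retina named for VGLUT3, the vesicular glutamate transporter encoded by Slc17a8. They were taken here from single-cell counts of UMIs (unique molecular identifiers, tags by which copies of the same captured RNA molecule are counted a single time) as all cells with at least 2 UMIs of Slc17a8 and at most 2 UMIs of Pcp2, a gene of bipolar cells. This gate held 634 of 32523 cells, which are called VG3 cells below. They were compared, library by library, with 4335 Slc6a9-gated cells (at least 2 UMIs of the glycine transporter gene Slc6a9 and none of Gad1, Gad2 or Slc17a8) and with 16284 Gad-gated cells (at least 2 UMIs over the GABA enzyme genes Gad1 and Gad2 and none of Slc6a9 or Slc17a8). The label was given with Lhx2 and Ntsr1 as further markers, and both were found in the gate, as described below. All groups came from the same 10 libraries of dissociated retina, taken on postnatal day 19 from mice of the Chx10-cre-GFP strain, with 4 libraries in batch 3, 5 in batch 2 and the remaining 1 in batch 1. Every group shared this transgene and the sort, which kept living cells that lacked GFP and did not stain for CD133 or CD73. As background, the promoter that drives the transgene is active in bipolar cells, so GFP marks cells other than amacrine cells. The labels do not say which libraries came from separate animals, so p-values reflect only how far libraries scatter, and that scatter may be technical.

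Most amacrine cells inhibit their partners with GABA or glycine. VG3 cells are known as an exception that carries VGLUT3, releases glutamate onto several types of ganglion cell, and in the mouse also releases glycine onto others. Their dendrites lie in the middle of the inner plexiform layer, where they receive input from bipolar cells and respond to small moving objects.

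Depth and shared cells were examined before any comparison. Libraries held 950 to 4738 cells and 6302659 to 26028492 UMIs. The median cell had 4743.5 UMIs in the VG3 gate, 3627 in the Slc6a9 gate and 5404.5 in the Gad gate. Of 31586 distinct cell barcodes, 923 occurred in more than 1 library. Libraries 5 and 6 shared 312 barcodes and libraries 2 and 3 shared 59, while the other 43 pairs shared 3 to 32. Among the VG3 cells, 45 had a shared barcode, 14 of them in the pair of libraries 5 and 6. Whether these are the same cells was not tested, and the main counts are therefore also given without them.

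The gate was first examined at its threshold. Slc17a8 (chromosome 10, 89574020 to 89621253, minus strand, GRCm38) had a lowest, median and highest level over libraries of 908, 1142 and 1532 CPM (CPM, a gene's UMIs over all UMIs of the summed cells, times 1000000) in VG3 cells, and was 0 in the other gates by the rule. A VG3 cell had a median of 6 Slc17a8 UMIs and at most 28. Only 86 VG3 cells (13.6%) stood exactly at 2 UMIs, and 398 (62.8%) had 5 or more. For Lhx2 and Ntsr1 the cells just inside the threshold were closer to the rest of the gate than to the cells just outside it, and for Sdk2 they were closer to the cells outside. Lhx2, a LIM-homeobox transcription factor, was at 191 CPM in the cells with 2 Slc17a8 UMIs, at 60.0 CPM in the 208 cells with 1 UMI and at 12.9 CPM in the 31340 cells with none. Between 3 and 4 UMIs Lhx2 was at 247 CPM, between 5 and 9 at 274 CPM, and at 10 or more at 300.0 CPM. Ntsr1, the neurotensin receptor, was at 36.3 CPM with 2 UMIs, 8.96 CPM with 1 and 0.640 CPM with none. Sdk2, an adhesion molecule, was at 52.8 CPM with 2 UMIs, 43.01 CPM with 1 and 18.2 CPM with none, and at 81.3 to 94.5 CPM from 3 UMIs up. Tac2, the precursor of neurokinin B, ran the other way, from 39.6 CPM at 2 UMIs to 10.7 CPM at 10 or more.

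**Figure D1:**
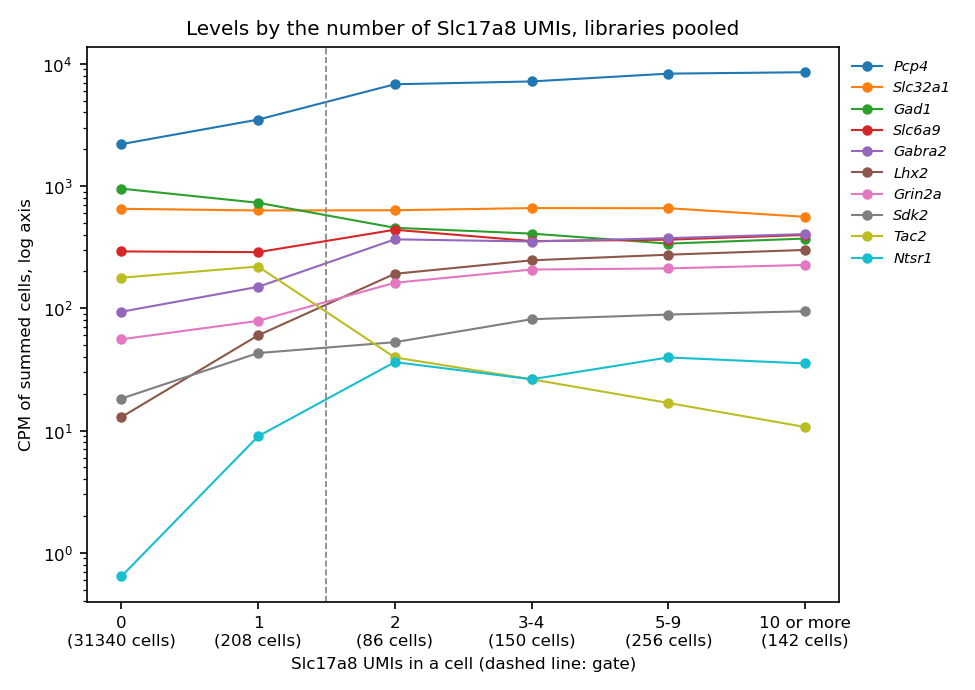
Levels of 10 genes (CPM, log axis) in cells grouped by their number of Slc17a8 UMIs, all libraries pooled; the dashed line is the gate, and the number of cells is under each group. Lhx2, Ntsr1, Gabra2, Grin2a and Pcp4 were higher in every group inside the gate than in the cells with 0 or 1 UMI, while Slc32a1 stayed between 560 and 660 CPM.

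The limit on Pcp2 left out 32 cells with at least 2 Slc17a8 UMIs, whose median was 8738.5 UMIs per cell. Pooled, they had 102 CPM of Grm6, 151 CPM of Trpm1 and 78.1 CPM of Otx2, all genes of bipolar cells, beside 148 CPM of Lhx2 and 24.2 CPM of Ntsr1. VG3 cells that were kept had 14.1 CPM of Grm6 and 16.9 CPM of Trpm1 on average. No Pcp2 UMI was found in 512 VG3 cells, and 122 had 1 or 2.

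The upstream sequences are shown for Slc17a8, which sets the gate, and for Lhx2 and Ntsr1, which were given as further markers. Each is the 250 bases upstream of a RefSeq transcript start in GRCm38.p6, written 5′ to 3′ along the gene. Capitals mark TAATTA, a core bound by LIM-homeobox factors such as LHX2, and CAGATG or its reverse complement CATCTG, an E-box bound by neuronal bHLH factors. Both strands were searched, and no match overlapped another.
Slc17a8, outer start, chr10:89621250-89621499, minus strand: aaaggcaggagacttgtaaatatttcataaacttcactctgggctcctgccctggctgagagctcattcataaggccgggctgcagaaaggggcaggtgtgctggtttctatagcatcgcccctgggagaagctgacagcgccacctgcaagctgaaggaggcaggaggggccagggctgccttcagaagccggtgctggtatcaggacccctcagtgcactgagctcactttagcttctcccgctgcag
Slc17a8, inner start, chr10:89599816-89600065, minus strand: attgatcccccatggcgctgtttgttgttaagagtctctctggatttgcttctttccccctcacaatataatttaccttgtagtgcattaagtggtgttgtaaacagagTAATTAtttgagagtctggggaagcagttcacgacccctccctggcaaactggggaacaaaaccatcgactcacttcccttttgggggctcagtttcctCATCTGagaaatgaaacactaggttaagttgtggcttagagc
Lhx2, chr2:38339031-38339280, plus strand: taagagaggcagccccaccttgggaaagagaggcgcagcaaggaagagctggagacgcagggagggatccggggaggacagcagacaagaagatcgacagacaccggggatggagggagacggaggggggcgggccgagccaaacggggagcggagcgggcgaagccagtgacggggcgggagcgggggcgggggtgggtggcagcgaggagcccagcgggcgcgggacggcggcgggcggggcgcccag
Ntsr1, chr2:180499726-180499975, plus strand: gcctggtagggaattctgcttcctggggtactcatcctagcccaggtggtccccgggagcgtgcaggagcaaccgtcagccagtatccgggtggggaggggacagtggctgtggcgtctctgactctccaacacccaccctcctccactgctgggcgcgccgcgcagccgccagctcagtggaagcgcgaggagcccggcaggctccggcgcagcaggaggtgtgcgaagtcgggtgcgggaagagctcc
The window before the inner Slc17a8 start, which lies within the gene, held 1 TAATTA and 1 E-box, and the other 3 windows shown held neither. Lhx2 has a further start within the gene, whose window (chr2:38351058-38351307) is not printed and also held neither. Over 32851 such windows of all RefSeq genes, 4.84% held TAATTA and 14.44% held the E-box. The counts are of 3′ ends, so they do not tell which start was used.

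VG3 cells were found in all 10 libraries. They made up 1.95% ± 0.370 of the cells of a library (SD, n = 10), from 24 of 950 cells in library 1, the highest share at 2.53% (exact 95% binomial interval 1.63% to 3.74%), to 25 of 1616 in library 9, the lowest at 1.55% (1.004% to 2.28%). These intervals cover counting error only. The share was 1.84% ± 0.326 in batch 3 (n = 4) and 1.92% ± 0.365 in batch 2 (n = 5), a difference of -0.08 percentage points (exact two-sided permutation test, p = 0.730; the smallest p the design allows is 0.0159). The difference was smaller than the spread within either batch. Levels within the gate did part by batch for some genes. Slc17a8 lay between 1185 and 1387 CPM in batch 3 and between 908 and 1098 CPM in batch 2, and Slc6a9 between 427 and 636 CPM in batch 3 and between 305 and 348 CPM in batch 2. Neither pair of ranges overlapped; these batch differences were not tested, and comparisons between gates were made within libraries.

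VG3 cells had more of the glycine transporter gene Slc6a9 and less of the GABA enzyme genes Gad1 and Gad2 than the cells without Slc17a8. Slc6a9, which encodes the glycine transporter GlyT1, had a lowest, median and highest level of 305, 388 and 636 CPM in VG3 cells and of 184, 220.0 and 473 CPM in the 31340 cells without any Slc17a8 UMI. The ranges overlapped, and VG3 cells were higher in 8 of 10 libraries (log2 change 0.49 ± 0.09 SE, edgeR adjusted p = 4.40e-05). Gad1, the main enzyme of GABA synthesis, was at 46.4, 372 and 532 CPM in VG3 cells and at 587, 938 and 1118 CPM in the cells without Slc17a8. Gad2, its synaptic partner enzyme, was at 19.9, 121 and 194 CPM in VG3 cells and at 215, 254 and 289 CPM in the cells without Slc17a8. Both fell in all 10 libraries, and for neither gene did the ranges overlap (log2 change -1.45 ± 0.10 SE for Gad1 and -1.06 ± 0.10 SE for Gad2, edgeR adjusted p = 8.44e-15 and 1.37e-10). For scale, Gad1 averaged 338 ± 152 CPM in VG3 cells and 399 ± 130 CPM in AII-gated cells, a glycinergic type described below, and Gad2 averaged 112 ± 54.1 CPM in VG3 cells and 140 ± 53.2 CPM in AII-gated cells (SD, n = 10 each). In this comparison with all Slc17a8-free cells edgeR called 25.3% of 11323 genes, 2869 in either direction.

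Cell by cell, most VG3 cells had a UMI of Slc6a9. The share was 79.8% ± 8.81 in VG3 cells, 92.5% ± 2.99 in AII-gated cells and 38.4% ± 6.44 in the cells without Slc17a8. It was 13.5% ± 5.79 in starburst-gated cells (GABA and acetylcholine releasing cells gated on Chat and Slc18a3, which should lack the gene), although these were deeper, with a median of 7776 UMIs. Gad1 or Gad2 gave a UMI in 41.7% ± 13.6 of VG3 cells, against 44.8% ± 14.2 of AII-gated cells (glycinergic cells gated on Gjd2 and Prox1, median 5570 UMIs). AII-gated cells were the deeper ones here. With every cell thinned to 2000 UMIs, which left out 81 VG3 cells and 69 AII-gated cells, and the gates applied again (357 VG3 and 560 AII-gated cells), the Gad share was 23.8% ± 11.9 in VG3 cells and 14.1% ± 9.30 in AII-gated cells. The thinned shares thus stand in the other order from the unthinned shares and the CPM, the difference was not tested, and no order of Gad between these cell types is read from them. At that depth the Slc6a9 share was 52.8% ± 11.0 in VG3 cells, below the 89.7% ± 5.31 in AII-gated cells. It was 28.7% ± 6.64 in the cells without Slc17a8 and 6.63% ± 5.94 in starburst-gated cells (n = 8 libraries). UMIs of both Slc6a9 and a Gad gene were found in 32.2% ± 10.4 of VG3 cells and of neither in 10.7% ± 5.38, or 9.74% and 33.1% after thinning. Of AII-gated cells, 7.44% ± 4.68 had neither after thinning. Shares count cells with a UMI, and free RNA in the droplets can add UMIs to cells that do not express a gene.

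Slc32a1, the transporter that loads GABA and glycine into vesicles, did not pass the test against either gate. Its lowest, median and highest levels were 471, 639 and 809 CPM in VG3 cells, 517, 578 and 706 CPM in the Slc6a9 gate and 559, 656 and 742 CPM in the Gad gate. All 3 ranges overlapped, and the log2 change was 0.04 ± 0.04 (SE) over the Slc6a9 gate and -0.07 ± 0.04 over the Gad gate (edgeR adjusted p = 0.89 and 0.225). In batch 2 alone the second difference passed the test (log2 change -0.15), and in batch 3 alone it had the other sign (0.05). Slc17a7, which encodes VGLUT1 and is a transporter of bipolar cells and photoreceptors, had 17.98 ± 8.07 CPM in VG3 cells, 6.86 ± 3.002 in the Slc6a9 gate and 9.01 ± 2.82 in the Gad gate (SD, n = 10 each) and was called higher in both comparisons (log2 change 1.26 ± 0.22 and 0.99 ± 0.19). With VG3 cells limited to those without a Pcp2 UMI, its change over the Gad gate was 0.52 and missed the threshold (edgeR adjusted p = 0.124). The gene of VGLUT2, Slc17a6, had 12 UMIs in all VG3 cells and was too low to test. Slc6a5, the neuronal glycine transporter GlyT2, had 24.1 ± 9.01 CPM in VG3 cells, 35.1 ± 8.75 in the Slc6a9 gate and 17.1 ± 3.71 in the Gad gate. It was called lower than the Slc6a9 gate and higher than the Gad gate, with log2 changes of -0.48 ± 0.16 and 0.57 ± 0.16 (SE). These calls were lost under several alternatives. In VG3 cells without a Gad UMI the changes were -0.62 and 0.42 and missed the threshold (edgeR adjusted p = 0.0508 and 0.238). The change over the Slc6a9 gate also missed it within batch 2 (-0.39), within batch 3 (-0.81) and after thinning (-0.00948, edgeR adjusted p = 0.998). The change over the Gad gate missed it within batch 3 (0.18, edgeR adjusted p = 0.8).

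Across all genes, VG3 cells differed from both gates in many genes, and a set of several genes set them apart from each. Of 10053 genes tested, 2055 (20.4%) were higher and 1639 (16.3%) lower in VG3 cells than in the Slc6a9 gate at an edgeR adjusted p under 0.05, and 726 and 404 of them by at least 2-fold. Against the Gad gate 1578 (15.7%) were higher and 1777 (17.7%) lower, 336 and 346 of them by at least 2-fold. The comparisons share the VG3 cells, so their counts are not independent. Without cells of shared barcodes, 1763 genes were higher and 1794 lower than in the Slc6a9 gate, and 1353 higher and 1957 lower than in the Gad gate. Without libraries 5 and 6 the counts were 1795 and 1444 against the Slc6a9 gate, and 1288 and 1577 against the Gad gate. Within batch 3 they were 1351 and 1154, and 928 and 1354, and within batch 2 they were 1656 and 1464, and 1228 and 1364. The Slc6a9 gate admits no Gad UMI, whereas 283 VG3 cells had one. Over the 351 VG3 cells without a Gad UMI, 10116 genes were tested. Of these genes, 1172 were higher and 1496 lower than in the Slc6a9 gate, and 1249 higher and 1936 lower than in the Gad gate. Of the calls against the Slc6a9 gate, 43.9% were higher in these cells and 55.6% with all VG3 cells. Of the calls against the Gad gate, 39.2% were higher in these cells and 47.0% with all VG3 cells. Each list below is also given for these cells, against the Slc6a9 gate only. Several lists leaned further to lower in these cells against the Gad gate. The counts of each list are to be read beside these shares and counts over all genes tested. No list was tested against them. With each cell thinned to 2000 UMIs, 682 genes were higher and 841 lower than in the Slc6a9 gate, and 522 higher and 935 lower than in the Gad gate.

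**Figure D2:**
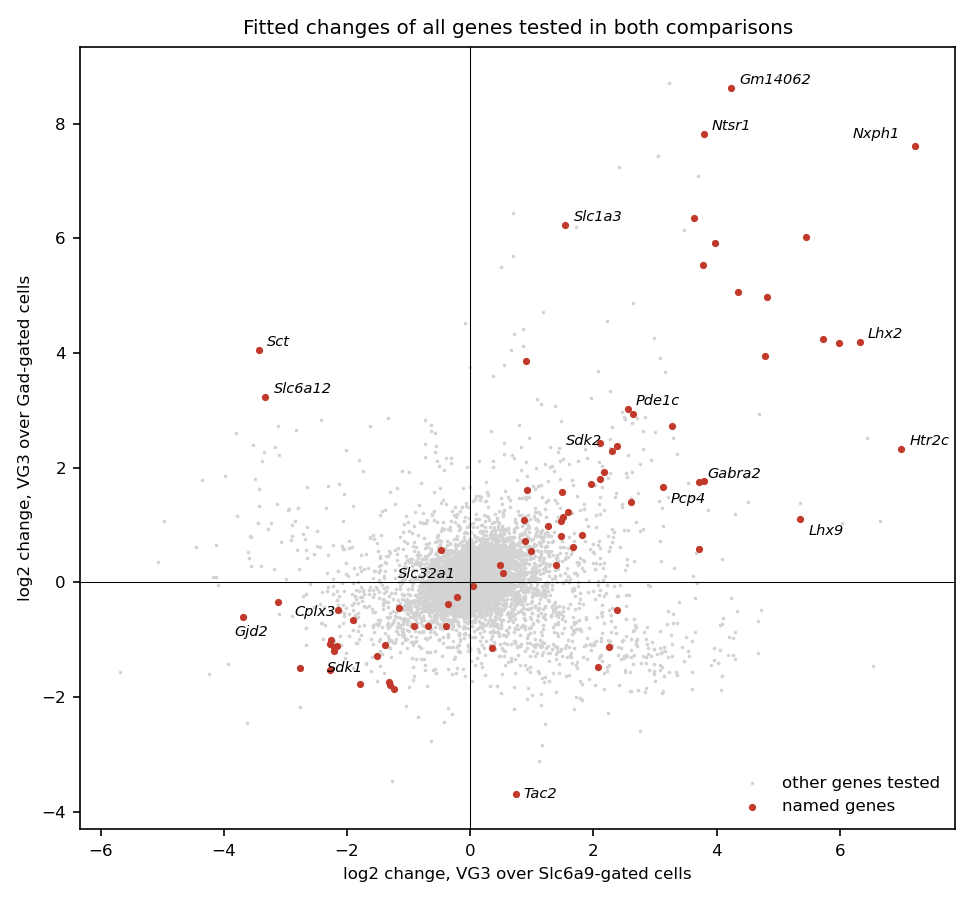
Fitted log2 change of each gene tested in both comparisons, VG3 over Slc6a9-gated cells on the x axis and VG3 over Gad-gated cells on the y axis; red points are the named genes and grey points all others. Nxph1, Lhx2, Ntsr1 and Gm14062 lie far up in both directions, Gjd2 and Sdk1 below 0 in both, and Sct and Slc6a12 in opposite directions.

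Nxph1, Lhx2 and Ntsr1 were far higher in VG3 cells than in both gates. Nxph1 encodes neurexophilin, a secreted ligand of neurexins at synapses (chromosome 6, 8948431 to 9249032, plus strand). Its lowest, median and highest levels were 348, 451 and 736 CPM in VG3 cells, 0, 2.76 and 10.5 CPM in the Slc6a9 gate and 0.512, 2.43 and 3.61 CPM in the Gad gate. The lowest VG3 library was far above the highest of either gate, with a log2 change of 7.22 ± 0.20 (SE) over the Slc6a9 gate and 7.61 ± 0.15 over the Gad gate (edgeR adjusted p = 1.30e-24 and 2.74e-29). Lhx2 (chromosome 2, 38339281 to 38369733, plus strand) was at 208, 285 and 371 CPM in VG3 cells, 0.438, 2.602 and 13.1 CPM in the Slc6a9 gate and 10.6, 14.6 and 18.7 CPM in the Gad gate. Its log2 change was 6.32 ± 0.21 over the Slc6a9 gate and 4.19 ± 0.13 over the Gad gate, again with no overlap between libraries. Against the Slc6a9 gate the change of Lhx2 was 7.39 within batch 3 and 5.44 within batch 2. Ntsr1 (chromosome 2, 180499976 to 180544980, plus strand) was at 22.4, 35.4 and 62.3 CPM in VG3 cells, 1.16, 2.68 and 3.94 CPM in the Slc6a9 gate and 0, 0 and 0.356 CPM in the Gad gate, where most libraries had no UMI. Its log2 change was 3.79 ± 0.28 over the Slc6a9 gate and 7.82 ± 0.32 over the Gad gate. Lhx2 and Ntsr1 were named as markers of these cells with results of these data known, so their changes describe the gate.

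**Figure D3:**
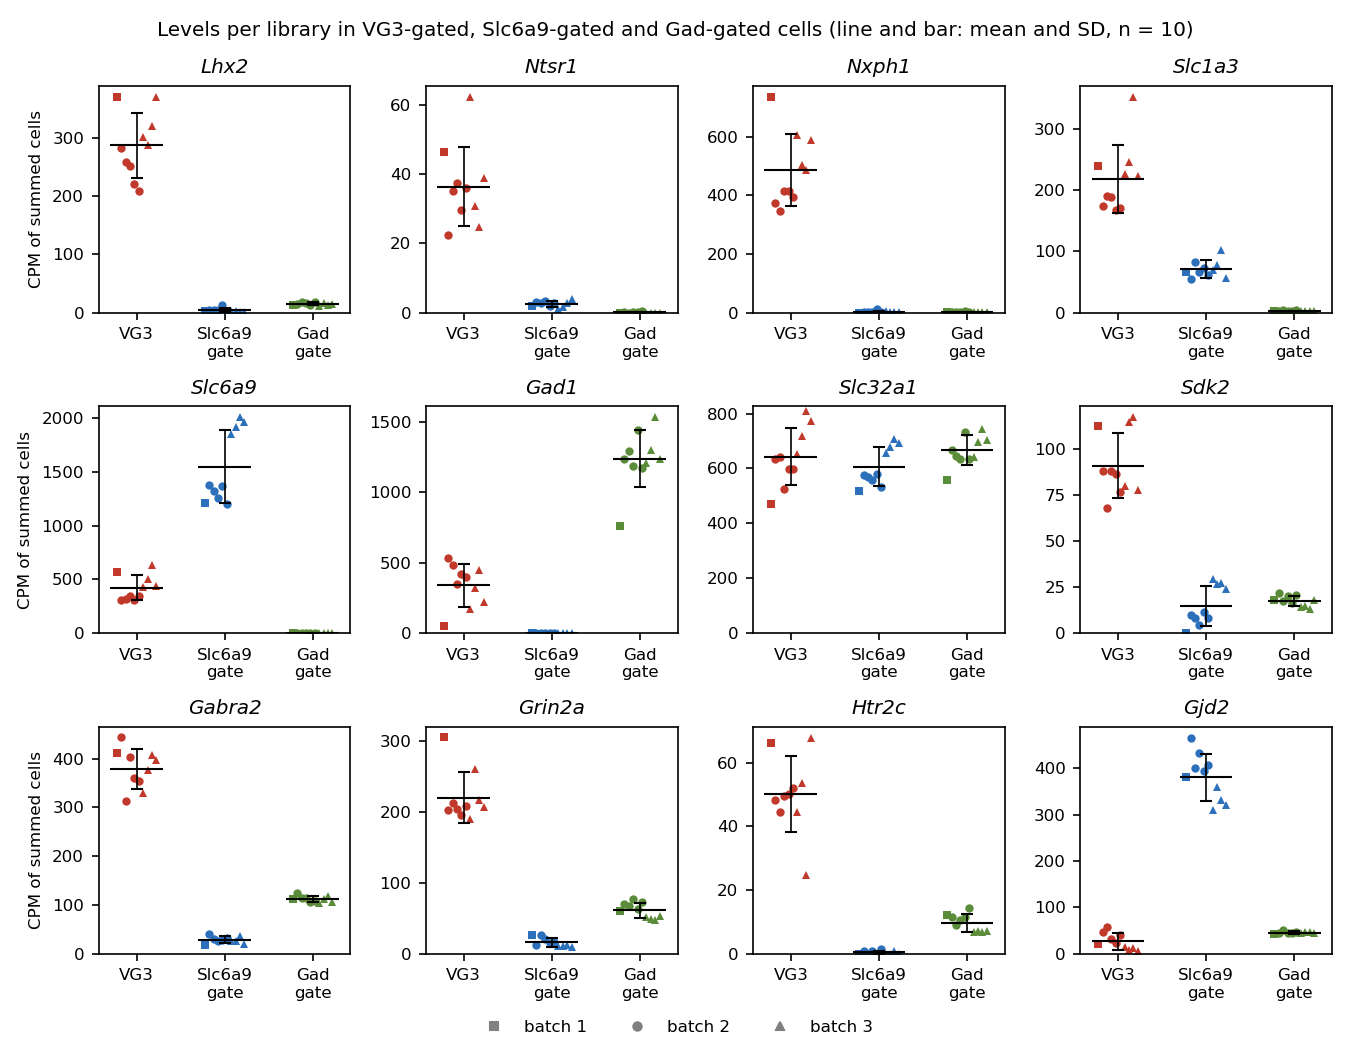
Levels of 12 genes in each library (CPM of the summed cells; marker shapes are batches, line and bar are mean and SD, n = 10) in VG3-gated cells, Slc6a9-gated cells and Gad-gated cells. The zeros of Slc6a9 in the Gad gate and of Gad1 in the Slc6a9 gate are set by the gates. The VG3 libraries lie above all others for Lhx2, Ntsr1, Nxph1, Slc1a3, Sdk2, Gabra2, Grin2a and Htr2c, and overlap them for Slc32a1.

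Outside the gene lists, a further group of genes was far higher in VG3 cells than in either gate. Plpp4, a phospholipid phosphatase, had 181 ± 50.8 CPM in VG3 cells, 3.77 ± 2.07 in the Slc6a9 gate and 2.52 ± 0.396 in the Gad gate (SD, n = 10 each). The long non-coding RNA Gm14062 (chromosome 2, 137870046 to 137876831, minus strand) had 77.8 ± 17.7 CPM in VG3 cells, 4.17 ± 2.35 in the Slc6a9 gate and 0.1403 ± 0.119 in the Gad gate. Dhrs3, a short-chain reductase of retinoid metabolism, had 263 ± 93.5 CPM in VG3 cells, 16.5 ± 4.92 in the Slc6a9 gate and 3.84 ± 1.07 in the Gad gate. For these 3 genes the log2 change was 5.45 ± 0.17, 4.23 ± 0.21 and 3.97 ± 0.16 (SE) over the Slc6a9 gate, and 6.03 ± 0.13, 8.62 ± 0.25 and 5.92 ± 0.15 over the Gad gate. The myosin gene Myo5b, at 76.9 CPM in VG3 cells, 2.31 in the Slc6a9 gate and 2.17 in the Gad gate, belonged to the same group. So did Slc16a14, of the monocarboxylate transporter family, at 99.8 CPM in VG3 cells, 4.37 in the Slc6a9 gate and 2.83 in the Gad gate. Pld5, Col24a1, a collagen gene, Tmprss11d, a serine protease gene, and Ccdc81 changed by 5.73, 5.99, 4.78 and 3.78 on the log2 scale over the Slc6a9 gate, and by 4.24, 4.18, 3.95 and 5.53 over the Gad gate. Each of these genes was higher in VG3 cells in 10 of 10 libraries against both gates, and their edgeR adjusted p ran from 6.50e-13 for Col24a1 over the Slc6a9 gate to 1.10e-27 for Plpp4 over the Gad gate.

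Among genes that handle transmitters, the glutamate transporters split. Slc1a3, which encodes GLAST and is best known from Müller glia, had lowest, median and highest levels of 166, 206 and 352 CPM in VG3 cells, 55.3, 67.9 and 102 CPM in the Slc6a9 gate and 2.02, 2.36 and 3.703 CPM in the Gad gate. It rose over both, by 1.54 ± 0.09 and 6.23 ± 0.11 on the log2 scale (SE; edgeR adjusted p = 7.07e-16 and 3.22e-30), and no VG3 library overlapped either gate. The neuronal glutamate transporters Slc1a1 and Slc1a6 fell. Slc1a1 had 30.2 ± 3.68 CPM in VG3 cells, 46.97 ± 10.4 in the Slc6a9 gate and 51.003 ± 5.09 in the Gad gate, and Slc1a6 had 19.5 ± 5.63, 34.8 ± 5.03 and 31.9 ± 4.100 CPM in the same order; both were lower in VG3 cells in every library. Slc6a12, a betaine and GABA transporter, lay between the gates, at 8.81 ± 8.44 CPM in VG3 cells, 69.6 ± 10.6 in the Slc6a9 gate and 0.705 ± 0.209 in the Gad gate. Of the list's genes other than those that set the gates, 20 of 27 passed the filter on low counts. Against the Slc6a9 gate they gave 6 higher, 7 lower and 7 not called, with a median log2 change of 0.14, and without Gad-positive VG3 cells 5 higher and 6 lower of 20; against the Gad gate they gave 5 higher, 9 lower and 6 not called, with a median log2 change of -0.14. The median over all genes tested was 0.02 in both comparisons.

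Among glutamate receptor genes, Grin2a, Grid1, Gria3, Cacng4 and Grm8 rose over both gates. Grin2a encodes the NMDA receptor subunit GluN2A. Its lowest, median and highest levels were 189.7, 208 and 305 CPM in VG3 cells, 9.64, 13.5 and 26.8 CPM in the Slc6a9 gate and 47.5, 61.5 and 77.1 CPM in the Gad gate, with no overlap. The log2 change was 3.79 ± 0.13 (SE) over the Slc6a9 gate and 1.76 ± 0.09 over the Gad gate (edgeR adjusted p = 4.14e-22 and 2.98e-17). Grid1, the delta receptor that bridges synapses through cerebellins, rose by 2.64 ± 0.23 and 2.94 ± 0.20. Gria3, a subunit of AMPA receptors, rose by 0.92 ± 0.09 and 1.61 ± 0.08, and Cacng4, an auxiliary subunit of AMPA receptors, by 1.51 ± 0.09 and 1.14 ± 0.08. Of the AMPA, NMDA and kainate receptor genes 22 of 29 were tested, and against the Slc6a9 gate there were 11 higher, 5 lower and 6 not called, with a median log2 change of 0.31. The VG3 cells without a Gad UMI gave 6 higher and 4 lower of 22, beside 1172 higher and 1496 lower of 10116 over all genes. The comparison with the Gad gate gave 9 higher, 5 lower and 8 not called, with a median log2 change of 0.22. Of the metabotropic receptors and their Homer scaffolds 10 of 11 were tested. Against the Slc6a9 gate these gave 8 higher, 0 lower and 2 not called, with a median log2 change of 0.94, against 4 higher and 0 lower of 10 without Gad-positive VG3 cells, and over the Gad gate 2 higher, 5 lower and 3 not called, with a median log2 change of -0.39. Grm8, a presynaptic receptor that dampens release, rose over both gates (0.87 ± 0.13 and 1.08 ± 0.11). The scaffold gene Homer2 rose over the Slc6a9 gate by 2.26 ± 0.19, but its change was -0.11 in VG3 cells without a Gad UMI, where it was not called. Against the Gad gate Homer2 was lower in 10 of 10 libraries with no overlap, at 57.3 ± 30.8 and 145 ± 7.29 CPM (SD). The log2 change over that gate was -1.13 ± 0.12 (SE), and -3.51 in VG3 cells without a Gad UMI.

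On the inhibitory side, Gabra2 separated the gates in every library. This GABA-A receptor subunit had lowest, median and highest levels of 313, 387 and 444 CPM in VG3 cells, 17.9, 27.4 and 40.2 CPM in the Slc6a9 gate and 104, 111 and 125 CPM in the Gad gate (log2 change 3.72 ± 0.08 SE and 1.75 ± 0.06, edgeR adjusted p = 5.74e-28 and 3.59e-23). Gphn, which encodes the receptor scaffold gephyrin, rose by 1.49 ± 0.09 and 1.57 ± 0.08. Of the GABA and glycine receptor genes 20 of 22 were tested. They gave 6 higher, 3 lower and 11 not called, with a median log2 change of 0.13 against the Slc6a9 gate, 5 higher and 4 lower of 20 without Gad-positive VG3 cells, and 8 higher, 5 lower and 7 not called, with a median log2 change of 0.05 against the Gad gate. Over all genes tested, 20.4% were higher and 16.3% lower than in the Slc6a9 gate, and 15.7% and 17.7% than in the Gad gate.

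The serotonin receptors Htr2c and Htr1b and the histamine receptor Hrh3 rose over both gates. Htr2c, an excitatory serotonin receptor, had lowest, median and highest levels of 24.7, 49.8 and 67.8 CPM in VG3 cells, 0, 0 and 1.36 CPM in the Slc6a9 gate and 6.66, 9.74 and 14.5 CPM in the Gad gate. Htr1b, an inhibitory one found on terminals, was at 12.3, 27.9 and 36.5 CPM in VG3 cells, 0.721, 2.09 and 6.097 CPM in the Slc6a9 gate and 3.47, 4.09 and 4.85 CPM in the Gad gate. Hrh3, a histamine receptor that dampens transmitter release, was at 57.5, 87.2 and 136 CPM in VG3 cells, 11.5, 17.1 and 37.7 CPM in the Slc6a9 gate and 20.5, 22.99 and 25.5 CPM in the Gad gate. None of these ranges overlapped between VG3 cells and a gate, and the log2 changes were 7.002 ± 0.32, 3.27 ± 0.23 and 2.17 ± 0.18 (SE) over the Slc6a9 gate and 2.32 ± 0.15, 2.73 ± 0.18 and 1.93 ± 0.15 over the Gad gate. The muscarinic receptor Chrm2 fell, to 8.23 ± 9.502 CPM in VG3 cells, against 29.4 ± 9.29 in the Slc6a9 gate and 28.3 ± 4.26 in the Gad gate. Of the acetylcholine and monoamine receptor genes 20 of 39 were tested, with 8 higher, 6 lower and 6 not called, with a median log2 change of 0.58 against the Slc6a9 gate. Counts were 5 higher and 7 lower of 20 in VG3 cells without a Gad UMI and 6 higher, 8 lower and 6 not called, with a median log2 change of -0.28 against the Gad gate.

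Among peptides and their receptors, Chga, Penk and Vipr2 rose over both gates. Chga, which encodes the granule protein chromogranin A, had 888 ± 190.4 CPM in VG3 cells, 302 ± 30.2 in the Slc6a9 gate and 485 ± 54.6 in the Gad gate. Penk, the enkephalin precursor, had 62.7 ± 25.6, 33.1 ± 8.92 and 4.24 ± 1.28 CPM in the same order, and Vipr2, a receptor for VIP and PACAP, had 62.1 ± 12.6, 11.6 ± 2.79 and 11.6 ± 1.43 CPM. For Penk the ranges of VG3 cells and the Slc6a9 gate overlapped, and library 3 ran the other way (23.4 against 36.0 CPM). The log2 change of Penk over the Slc6a9 gate was 0.66 within batch 2 and 1.30 within batch 3. For Vipr2 no VG3 library overlapped either gate (log2 change 2.39 ± 0.15 SE and 2.37 ± 0.13, edgeR adjusted p = 2.39e-15 and 5.06e-17). Tac2 fell to 16.5 ± 15.6 CPM in VG3 cells, against 241 ± 34.4 in the Gad gate, and was at 11.4 ± 7.21 in the Slc6a9 gate, from which it did not differ by the test. Sct, the secretin gene, was below the Slc6a9 gate and above the Gad gate, at 5.38 ± 11.4, 76.3 ± 13.1 and 0.418 ± 0.303 CPM, but its VG3 level rests on library 2 (36.3 CPM; at most 11.4 CPM in the other libraries), and within batch 3 the change over the Gad gate was -2.64. The somatostatin receptor Sstr2 rose over the Slc6a9 gate by 2.08 ± 0.35, and its change was -0.23 in VG3 cells without a Gad UMI. Against the Gad gate Sstr2 was lower, at 0 to 27.6 CPM in VG3 cells and 28.8 to 46.2 CPM in that gate. Its log2 change over the Gad gate was -1.17 within batch 2, -2.48 within batch 3 and -3.8 in VG3 cells without a Gad UMI. Neuropeptides gave 10 higher, 3 lower and 6 not called, with a median log2 change of 0.76 among 19 of 36 tested against the Slc6a9 gate, 5 higher and 3 lower of 18 without Gad-positive VG3 cells, and 5 higher, 11 lower and 3 not called, with a median log2 change of -0.80 against the Gad gate. For neuropeptide receptors 9 of 39 were tested, with 6 higher, 1 lower and 2 not called, with a median log2 change of 2.08 against the Slc6a9 gate, 2 higher and 1 lower of 9 without Gad-positive VG3 cells, and 3 higher, 1 lower and 5 not called, with a median log2 change of 0.05 against the Gad gate.

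Transcription factors other than Lhx2 also rose over both gates. Bnc2, a zinc finger protein gene, had lowest, median and highest levels of 53.7, 80.8 and 99.5 CPM in VG3 cells, 3.09, 5.72 and 10.7 CPM in the Slc6a9 gate and 0, 0.804 and 1.99 CPM in the Gad gate. Lhx9, a close relative of Lhx2, was at 92.8, 121 and 173 CPM in VG3 cells, 0, 2.55 and 11.3 CPM in the Slc6a9 gate and 46.3, 54.9 and 66.4 CPM in the Gad gate. Id2, which binds and blocks bHLH factors, was at 135, 194 and 310.0 CPM in VG3 cells, 34.001, 48.5 and 64.4 CPM in the Slc6a9 gate and 30.8, 36.8 and 44.4 CPM in the Gad gate. No range of VG3 cells overlapped that of a gate. The log2 changes of Bnc2, Lhx9 and Id2 were 3.64 ± 0.22, 5.35 ± 0.23 and 2.103 ± 0.15 (SE) over the Slc6a9 gate and 6.36 ± 0.22, 1.11 ± 0.12 and 2.43 ± 0.13 over the Gad gate. Of the transcription factors 71 of 111 were tested, with 40 higher, 18 lower and 13 not called, with a median log2 change of 0.56 against the Slc6a9 gate, 23 higher and 21 lower of 71 without Gad-positive VG3 cells, and 29 higher, 29 lower and 13 not called, with a median log2 change of -0.11 against the Gad gate.

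Of the named genes of the release machinery, Cplx3 had the largest change over both gates. Cplx3, a complexin of retinal synapses, fell to 754 ± 148 CPM in VG3 cells, against 2918 ± 716 in the Slc6a9 gate and 1239 ± 191 in the Gad gate (log2 change -1.902 ± 0.09 SE and -0.65 ± 0.09, lower in 10 of 10 libraries in both, edgeR adjusted p = 7.29e-19 and 2.06e-07). Rab3a, a vesicle-bound GTPase, fell, with signed log2 changes of -0.22 ± 0.04 and -0.26 ± 0.04. Stx1a, a syntaxin of the fusion complex, rose by 0.98 ± 0.11 and 0.55 ± 0.10, and Sncb, which encodes beta-synuclein, by 0.52 ± 0.03 and 0.16 ± 0.03. Release genes gave 30 higher, 11 lower and 17 not called, with a median log2 change of 0.31 among 58 of 64 tested against the Slc6a9 gate. Without Gad-positive VG3 cells the count was 15 higher and 12 lower of 59, and against the Gad gate it was 13 higher, 25 lower and 20 not called, with a median log2 change of -0.19.

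**Figure D4:**
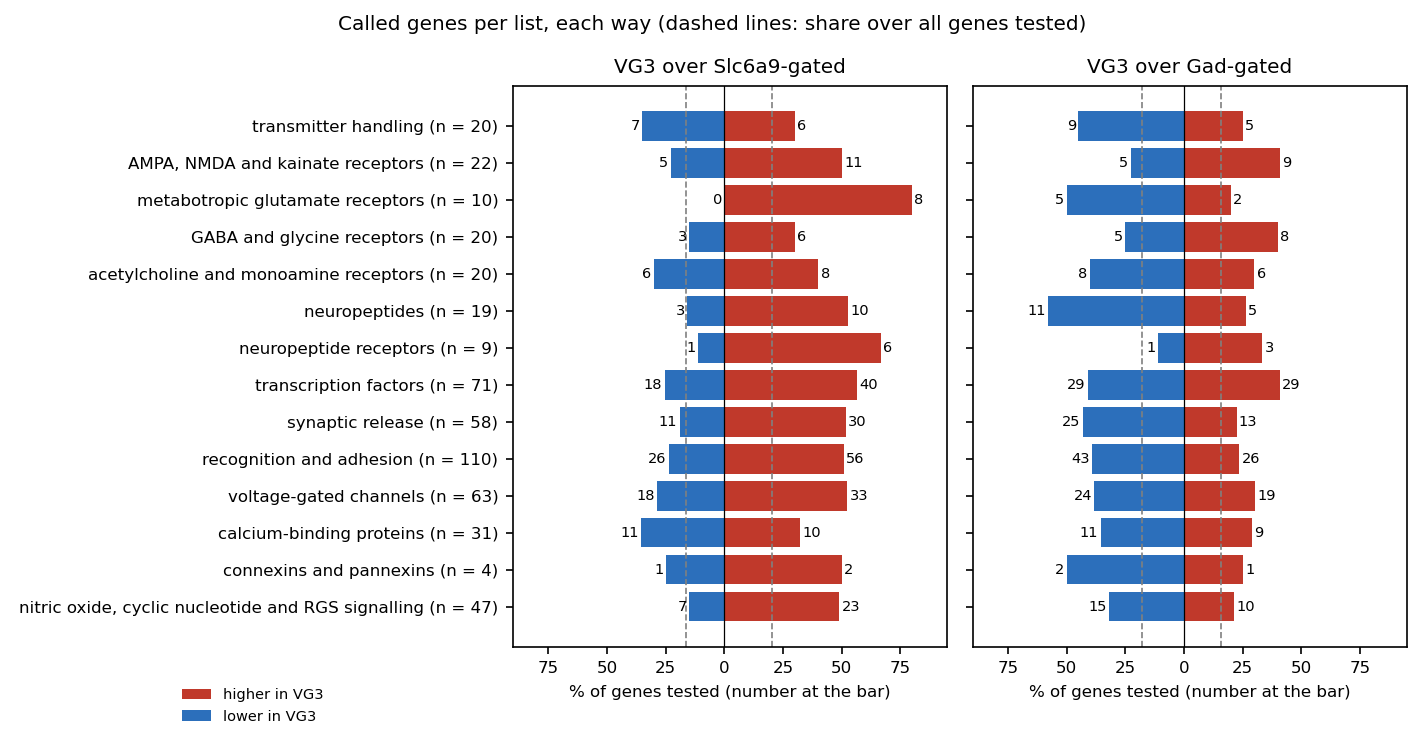
Share of the tested genes of each list that were called higher (red, right) or lower (blue, left) in VG3 cells, over Slc6a9-gated cells in the left panel and over Gad-gated cells in the right panel; the number of genes stands at each bar, and dashed lines are the shares over all genes tested. Against the Slc6a9 gate most lists lean to higher, with 8 of 10 metabotropic receptor genes, and against the Gad gate several lean to lower, with 11 of 19 neuropeptides. All genes tested also lean to higher against the Slc6a9 gate (20.4% higher, 16.3% lower). VG3 cells without a Gad UMI are not drawn. In them most lists lean less to higher against the Slc6a9 gate, and several lean further to lower against the Gad gate.

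Recognition molecules included the pair Sdk2 and Sdk1, which moved in opposite directions. As background, Sdk2 is a homophilic adhesion protein through which mouse VG3 cells recognise a ganglion cell type that detects moving objects. Its lowest, median and highest levels were 67.7, 87.3 and 117 CPM in VG3 cells, 0, 10.6 and 29.4 CPM in the Slc6a9 gate and 13.3, 17.7 and 21.8 CPM in the Gad gate. VG3 libraries did not overlap either gate (log2 change 2.297 ± 0.25 SE and 2.29 ± 0.22, edgeR adjusted p = 3.15e-09 and 1.62e-10). Sdk1, its closest relative, had 0, 5.57 and 16.4 CPM in VG3 cells, 13.7, 17.7 and 25.003 CPM in the Slc6a9 gate and 13.4, 16.05 and 23.97 CPM in the Gad gate, with overlapping ranges, and was lower in VG3 cells in 10 of 10 libraries against both (log2 change -1.51 ± 0.29 and -1.28 ± 0.28). Pcdh7, a protocadherin gene, had 460.2 ± 64.8 CPM in VG3 cells, 78.2 ± 39.9 in the Slc6a9 gate and 171 ± 34.3 in the Gad gate. Efna3, a membrane-bound guidance ligand, rose by 1.67 ± 0.12 and 0.62 ± 0.10, while the cadherin Cdh7 had signed log2 changes of -2.26 ± 0.20 and -1.002 ± 0.22. Of the recognition and adhesion genes 110 of 126 were tested, with 56 higher, 26 lower and 28 not called, with a median log2 change of 0.39 against the Slc6a9 gate. The counts were 29 higher and 31 lower of 109 in VG3 cells without a Gad UMI, and 26 higher, 43 lower and 41 not called, with a median log2 change of -0.29 against the Gad gate.

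The named ion channel genes that rose over both gates encode auxiliary subunits. Cacna2d1 and Cacnb1, auxiliary subunits of calcium channels, rose by 3.72 ± 0.13 and 1.81 ± 0.21 over the Slc6a9 gate and by 0.59 ± 0.08 and 0.83 ± 0.17 over the Gad gate. Kcnab2, an auxiliary subunit of potassium channels, had 178 ± 50.2 CPM in VG3 cells, 63.1 ± 14.3 in the Slc6a9 gate and 83.5 ± 8.49 in the Gad gate. Scn1a, a pore-forming sodium channel gene, was lower, at 31.8 ± 14.2 CPM in VG3 cells, 146 ± 44.5 in the Slc6a9 gate and 45.9 ± 7.99 in the Gad gate. Its change over the Gad gate was -0.47, and it missed the threshold without the library block (-0.39, edgeR adjusted p = 0.181) and within batch 2 (-0.34, 0.0741). Of the voltage-gated channel genes 63 of 79 were tested, with 33 higher, 18 lower and 12 not called, with a median log2 change of 0.45 against the Slc6a9 gate, 20 higher and 18 lower of 63 without Gad-positive VG3 cells, and 19 higher, 24 lower and 20 not called, with a median log2 change of -0.15 against the Gad gate.

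Calcium and cyclic nucleotide signalling held the most abundant of the named genes. Pcp4, a small calmodulin-binding protein, had lowest, median and highest levels of 5954, 7695 and 12872 CPM in VG3 cells, 783, 889 and 1239 CPM in the Slc6a9 gate and 2213, 2565 and 3509.7 CPM in the Gad gate. Camk2n1, an inhibitor of CaM kinase, was at 1749, 2119 and 3170.0 CPM in VG3 cells, 399, 557 and 656 CPM in the Slc6a9 gate and 569, 655 and 701 CPM in the Gad gate. VG3 libraries lay above every library of the other gates for both (log2 change 3.12 ± 0.08 and 1.97 ± 0.08 SE over the Slc6a9 gate, 1.67 ± 0.08 and 1.72 ± 0.08 over the Gad gate). The calmodulin gene Calm2 rose by 0.49 ± 0.03 and 0.30 ± 0.03. Necab3 had 6.42 ± 5.86 CPM in VG3 cells, 58.6 ± 45.2 in the Slc6a9 gate and 8.24 ± 0.863 in the Gad gate, and fell only against the Slc6a9 gate. Calcium-binding genes gave 10 higher, 11 lower and 10 not called, with a median log2 change of -0.06 among 31 of 33 tested against the Slc6a9 gate, 8 higher and 9 lower of 31 without Gad-positive VG3 cells, and 9 higher, 11 lower and 11 not called, with a median log2 change of -0.13 against the Gad gate. Pde1c, a phosphodiesterase that calmodulin activates, was at 215, 271 and 313 CPM in VG3 cells, 29.1, 44.5 and 64.1 CPM in the Slc6a9 gate and 25.1, 33.4 and 38.6 CPM in the Gad gate (log2 change 2.56 ± 0.11 and 3.02 ± 0.10). The cGMP-dependent kinase Prkg1 rose by 2.104 ± 0.15 and 1.795 ± 0.12, and the protein kinase C gene Prkce by 1.398 ± 0.08 and 0.30 ± 0.07, the second being 0.21 and short of the threshold in VG3 cells without a Gad UMI (edgeR adjusted p = 0.107). Pde4d, which breaks down cAMP, had signed changes of -1.16 ± 0.17 and -0.45 ± 0.17, and in VG3 cells without a Gad UMI the second was -0.64, larger in size but short of the threshold (edgeR adjusted p = 0.0716). The change of Pde4d over the Gad gate was also short of it after thinning (-0.38, edgeR adjusted p = 0.451) and when library 1, 3 or 8 alone was left out. In this signalling list 47 of 57 genes were tested, with 23 higher, 7 lower and 17 not called, with a median log2 change of 0.40 against the Slc6a9 gate, 16 higher and 11 lower of 47 without Gad-positive VG3 cells, and 10 higher, 15 lower and 22 not called, with a median log2 change of -0.03 against the Gad gate.

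Of the gap junction genes, 4 of 7 could be tested. Gjd2, the connexin that couples AII cells, had 6.46, 21.3 and 58.4 CPM in VG3 cells, 311, 388 and 467 CPM in the Slc6a9 gate and 42.6, 44.7 and 51.1 CPM in the Gad gate. It fell against the Slc6a9 gate with no overlap (log2 change -3.69 ± 0.14 SE, edgeR adjusted p = 1.80e-21); against the Gad gate the ranges overlapped (-0.60 ± 0.18, edgeR adjusted p = 0.00801) and the change was -0.21 and not called within batch 2 (0.346). Panx1, a channel-forming pannexin, rose by 1.58 ± 0.18 and 1.23 ± 0.15. Gjc1, another neuronal connexin, had 16.97 ± 10.4 CPM in VG3 cells, 14.9 ± 6.54 in the Slc6a9 gate and 40.6 ± 4.54 in the Gad gate, and fell only against the Gad gate. Against the Slc6a9 gate the list gave 2 higher, 1 lower and 1 not called, with a median log2 change of 0.48, without Gad-positive VG3 cells 1 higher and 1 lower of 4, and against the Gad gate 1 higher, 2 lower and 1 not called, with a median log2 change of -0.27.

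With all VG3 cells, the genes outside the lists that fell most had smaller changes than those that rose most. Fbxo32, a ubiquitin ligase component, had 22.6 ± 9.28 CPM in VG3 cells, 105 ± 13.1 in the Slc6a9 gate and 52.3 ± 3.45 in the Gad gate, and Gfra2, a receptor for neurturin, had 18.95 ± 8.305, 91.2 ± 19.3 and 45.9 ± 6.05 CPM in the same order. Esd, an esterase gene, and the cadherin Cdh22 had signed log2 changes of -1.38 ± 0.12 and -2.21 ± 0.26 over the Slc6a9 gate and -1.099 ± 0.11 and -1.12 ± 0.28 over the Gad gate. The same direction held for Asl, an enzyme of arginine synthesis (-1.25 and -1.85), for Cdo1, which oxidises cysteine (-1.296 and -1.79), and for Cdk18 (-2.28 and -1.52), B3gat2 (-2.76 and -1.48), Luzp2 (-1.32 and -1.74) and Fam60a (-2.27 and -1.08). The same genes were also fitted without the Gad-positive VG3 cells, which were the deeper ones. In that fit the change over the Slc6a9 gate was -3.30 for Fbxo32, -3.23 for Gfra2, -2.70 for Esd and -3.49 for Cdh22. It was -3.21 for Asl, -3.39 for Cdo1, -4.06 for Cdk18, -4.92 for B3gat2 and -3.25 for Luzp2. All of these were further from 0 than with all VG3 cells. The part of depth and of fewer cells in this was not tested. Within batch 2 the change of Luzp2 over the Slc6a9 gate was 0.03, and that of Fam60a over the Gad gate was -1.16 within batch 3, as large as in full but short of the threshold, as it also was in 7 of the 10 runs that each left out a library.

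The gate itself was not uniform. VG3 cells with and without a Gad UMI were compared within 9 libraries, 279 cells with and 331 without; library 1 had too few Gad-positive cells. Cells with a Gad UMI had more C1ql2, C1ql1, Cartpt and Meis2 and less Nxph1, Lhx2 and Slc6a9. Of 3098 genes tested edgeR called 620 (20%), 318 higher and 302 lower; DESeq2 called 295, and batch 3 alone gave 163. C1ql2, a secreted synaptic organiser, averaged 472 ± 113 CPM with a Gad UMI and 21.9 ± 14.3 CPM without, higher in 9 of 9 libraries (log2 change 4.35 ± 0.17 SE, edgeR adjusted p = 1.90e-35). Cartpt, a peptide precursor, averaged 1432 ± 1383 CPM with a Gad UMI and 69.2 ± 36.8 CPM without, with a wide spread from 61.3 to 3542 CPM in the Gad-positive cells. Meis2, a homeobox factor of GABAergic amacrine cells, averaged 408 ± 184 CPM with a Gad UMI and 36.3 ± 31.9 CPM without, and C1ql1, a relative of C1ql2, 1218 ± 346 CPM with a Gad UMI and 234 ± 39.2 CPM without. In the other direction Nxph1 averaged 327 ± 92.98 CPM with a Gad UMI and 698 ± 56.9 CPM without, Lhx2 218 ± 29.99 CPM with a Gad UMI and 378 ± 88.7 CPM without, and Slc6a9 315 ± 95.5 CPM with a Gad UMI and 534 ± 129.7 CPM without. These 3 fell in 9 of 9 libraries (log2 change -1.17 ± 0.09, -0.80 ± 0.10 and -0.80 ± 0.09 SE), as did Dhrs3 (-1.27 ± 0.11), Gabra2 (-0.78 ± 0.10), Pcp4 (-0.87 ± 0.05), the long non-coding RNA A930001A20Rik (-1.22 ± 0.06), the carbonic anhydrase gene Car3 (-1.20 ± 0.07) and the bHLH factor Neurod1 (-1.11 ± 0.13). Slc32a1 did not pass the test, with 650.2 ± 78.9 CPM with a Gad UMI and 676 ± 137 CPM without (-0.07 ± 0.07, edgeR adjusted p = 0.576). The parts differed in depth: the median cell had 6437 UMIs with a Gad UMI and 4164 without, so Gad-positive cells were also the deeper ones. Doublets were not removed, and the part of depth and of doublets in this difference was not tested.

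**Figure D5:**
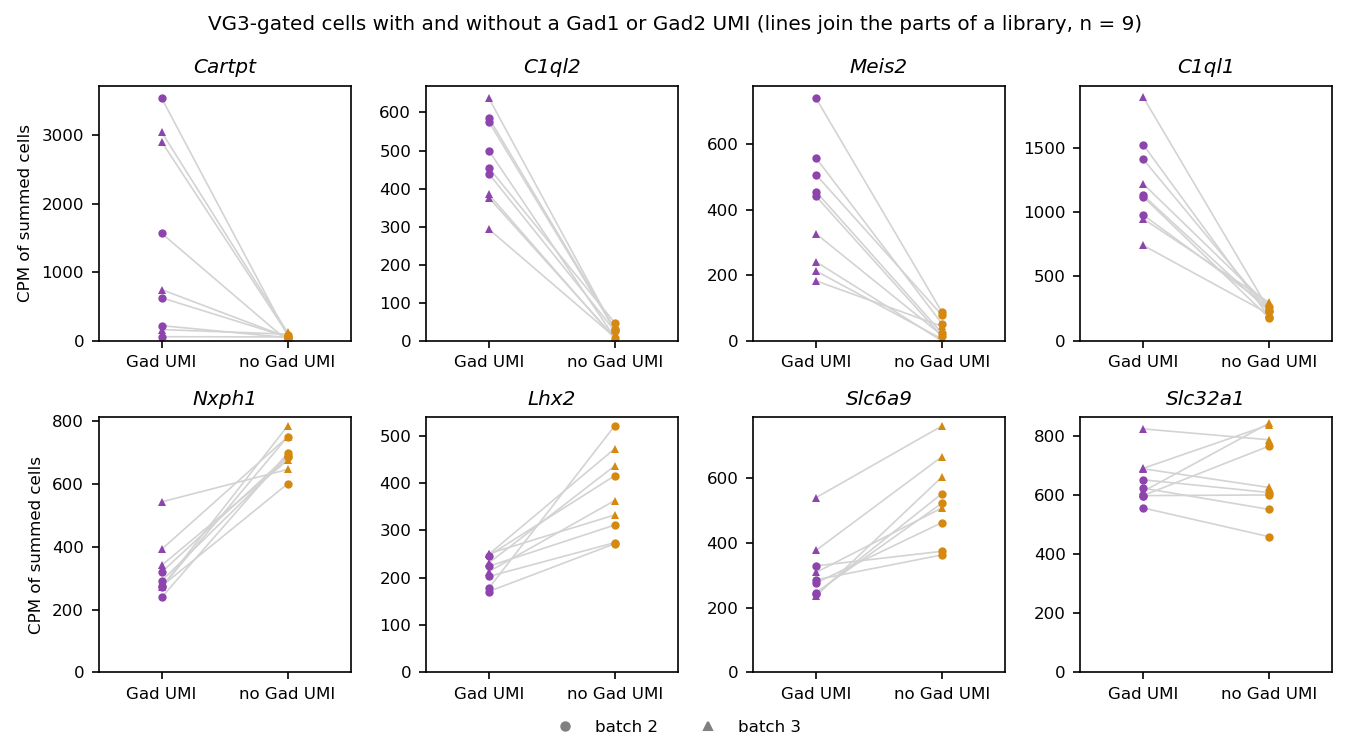
Levels of 8 genes (CPM of the summed cells) in VG3 cells with a Gad1 or Gad2 UMI (purple, left) and without (orange, right); each line joins the values of 1 library, and marker shapes are batches. Cartpt, C1ql2, Meis2 and C1ql1 are higher with a Gad UMI, Nxph1, Lhx2 and Slc6a9 are lower, and Slc32a1 crosses in both directions.

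A stricter split set VG3 cells with Slc6a9 and no Gad UMI (274 cells over all 10 libraries) against those with a Gad UMI and no Slc6a9 (70 over all 10). It could be tested in libraries 4, 5 and 6 only, all of batch 2. Libraries 5 and 6 shared 312 barcodes, so they may not be independent. This split was not run without shared barcodes. There edgeR called 126 of 2202 genes (5.72%), 57 higher and 69 lower. Vip averaged 3.62 ± 6.26 CPM in the Slc6a9 cells and 921 ± 673 CPM in the Gad cells (SD, n = 3), and Npy 18.8 ± 9.27 CPM and 373 ± 251 CPM; both are peptides of GABAergic amacrine cells. Npnt, an extracellular matrix gene, had no UMI in the Slc6a9 cells and 194 ± 88.5 CPM in the Gad cells. In the other direction Lamp5 averaged 1673 ± 147 CPM in the Slc6a9 cells and 569 ± 98.9 CPM in the Gad cells (log2 change 1.60 ± 0.14 SE, edgeR adjusted p = 5.91e-06). Lhx2, at 268 ± 35.6 CPM in the Slc6a9 cells and 195 ± 59.0 CPM in the Gad cells, did not pass the test (log2 change 0.55 ± 0.24, edgeR adjusted p = 0.232). Without library 4, which leaves libraries 5 and 6, the split gave 43 calls. It gave 101 without library 5 and 100 without library 6.

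Markers of other cell classes were measured in all gates. Genes of bipolar cells summed to 321 to 588 CPM over libraries in VG3 cells, 237 to 439.9 in the Slc6a9 gate and 319 to 459 in the Gad gate, with Pcp2 limited in the first by the rule. Of these, 6 of 11 tested were higher and 0 lower in VG3 cells than in the Slc6a9 gate, and 7 higher and 2 lower than in the Gad gate; none of the 14 was at 0. Trpm1 was at 16.9 CPM in VG3 cells, 6.64 in the Slc6a9 gate and 6.77 in the Gad gate. Genes of Müller glia, which include Slc1a3, summed to 875 to 1135 CPM in VG3 cells, 403 to 557 in the Slc6a9 gate and 1128 to 1471 in the Gad gate. Rod genes summed to 109 to 252 CPM in VG3 cells, 158 to 222 and 129.8 to 198 in the other gates. Cone genes summed to 79.6 to 275, 129 to 266 and 121 to 191 CPM, and ganglion cell genes to 192 to 381, 281 to 606 and 528 to 589 CPM, in the same order. Pan-amacrine genes summed to 5087 to 7107 CPM in VG3 cells, 4344 to 5222 in the Slc6a9 gate and 7139 to 8947 in the Gad gate, of which Gad1, Gad2 and Slc6a9 are set by the gates. AII markers summed to 152 to 317 CPM in VG3 cells, 1349 to 1904 in the Slc6a9 gate and 190.5 to 266 in the Gad gate, and all 6 were lower than in the Slc6a9 gate. Of the dissociation stress genes 15 of 20 were tested; 11 were higher and 0 lower than in the Slc6a9 gate, and 3 were higher and 7 lower than in the Gad gate. Horizontal cell genes summed to 2280.5 to 2958 CPM in VG3 cells, 1411 to 1878 in the Slc6a9 gate and 1560.3 to 1884 in the Gad gate, above both with no overlap. Most of that sum was Tfap2b, a factor that amacrine cells share, at 2152 CPM in VG3 cells, 874 in the Slc6a9 gate and 1179 in the Gad gate, while Lhx1, which defines horizontal cells, averaged 0.546, 1.14 and 0.884 CPM in the same order. Of the 7 horizontal cell genes tested, 1 was higher and 2 were lower than in the Slc6a9 gate, and 2 were higher and 1 lower than in the Gad gate. Starburst genes summed to 5.93 to 183 CPM in VG3 cells, with a median of 24.2 CPM, to 15.1 to 36.3 in the Slc6a9 gate and to 52.9 to 201 in the Gad gate. Genes of microglia, vessels and blood summed to 66.3 to 191 CPM in VG3 cells, 41.1 to 81.6 in the Slc6a9 gate and 33.5 to 50.4 in the Gad gate. Most of the VG3 sum was Kdr, a receptor gene of vessels, at 75.4 CPM in VG3 cells, 55.3 in the Slc6a9 gate and 5.95 in the Gad gate. Of the 2 genes tested, 2 were higher than in the Slc6a9 gate, and 1 was higher and 1 lower than in the Gad gate. In this list 6 of 13 genes were at 0 in VG3 cells (C1qb, Csf1r, Gfap, Hba-a1, Ly6c1 and Tmem119), as were Isl2 of ganglion cells, Megf10 of starburst cells and the stress gene Atf3. The part of these markers in the results was not tested.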

How the data were processed

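Single-cell libraries were made on the 10x Genomics 3′ platform. The authors deposited a table of UMI counts per gene and cell, whole numbers that were not normalized; Cell Ranger 2.1.0 and the mm10 build are named in the submitters' processing notes. For filters on cells, doublet removal and the annotation, nothing was given in the sources used here. The table held 27933 genes and 32523 cells, with 748 to 39739 UMIs and at least 601 genes per cell, and no further cell filter or doublet caller was applied. Cells were assigned to libraries by their column names and gated as described. Counts were summed per library and gate (at least 10 cells) and tested with edgeR 4.0.16 in R 4.3.3: TMM, filterByExpr, quasi-likelihood test, library as a block, Benjamini-Hochberg adjustment over all genes tested, threshold 0.05. The libraries pair the gates, since the gated cells come from the same suspensions. The 3 gates shared 1 fit, and Slc17a8, Pcp2, Slc6a9, Gad1 and Gad2 entered no count there. SE is the absolute log2 change over the square root of F. CPM are a gene's UMIs over all UMIs of the summed cells, times 1000000. Alternatives were DESeq2 1.42.0, its size factors, no filter, no block, other gates, thinning to 2000 UMIs, single batches and leaving out libraries; the fits were tested on simulated data.

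Genes are named by a fixed rule: the gate and marker genes and a few transporters and Sdk genes; from each list up to 4 called genes of at least 20 CPM that moved one way in every library, those called against both gates first; and the 10 most changed each way outside the lists, with Benjamini-Hochberg calls in both comparisons. For the splits inside the gate it is the 10 most changed each way, plus Lhx2, Slc6a9, Slc32a1, Gabra2 and Pcp4. Marker gene values beside these are given as a check. The gate, the lists and the markers were chosen with earlier results of these data known; the split on Gad alone, the runs without shared barcodes or without libraries 5 and 6, and VG3 cells without a Gad UMI were added after seeing the data. Positions come from GENCODE M21 (26646 symbols, 95.4%, had a record) and upstream sequences from RefSeq, GRCm38.p6. A few genes that the naming rule picks are not reported here.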

Additional observations from a re-analysis of the deposited data

Results flagged for a closer look

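Within VG3 cells, 6 of 84 values tested had 1 library whose gap to its nearest neighbour exceeded 0.466 of the range over the 10 libraries, a test that chance passes in about 1 of 20. Slc1a3 was at 351.9 CPM in library 9 and at most 245 CPM elsewhere. Slc16a14 was at 192.3 CPM in library 1 and at most 116 CPM elsewhere, and Pcdh7 was at 305.1 CPM there, with at least 420 CPM in the others. Sct was at 36.26 CPM in library 2, Cdo1 at 16.35 CPM in library 3 and Cacnb1 at 50.4 CPM in library 7, against at most 11.4, 7.48 and 35.5 CPM in the other libraries. Libraries 1 and 9 held the fewest VG3 cells, 24 and 25.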

How the results depend on the processing

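Of 3876 values of the named genes under the alternatives, 3797 kept their direction and their side of the threshold, 59 lost the call, 6 gained one and 14 changed sign. Most of these genes were named because they were called in the full data. Much of this agreement was therefore set by that choice, above all in the runs that left out a library. Thinning to 2000 UMIs, which also removed cells, left 1523 calls against the Slc6a9 gate and 1457 against the Gad gate (3694 and 3355 in full). Leaving out each library in turn gave 3404 to 3700 and 3049 to 3330 calls, 2545 to 2881 against all Slc17a8-free cells, 520 to 661 for the split on Gad, and 43 to 101 for the split on Slc6a9 and Gad. Batch 3 alone gave 1877 calls against the Slc17a8-free cells (2869 in full) and 163 for the split on Gad. DESeq2 gave 295 for that split and 36 for the split on Slc6a9 and Gad, which had 224 without the filter. Without the library block, which pairs the gates, the counts were 3380, 2930, 2547, 552 and 152 for the comparisons with the Slc6a9 gate, the Gad gate and the Slc17a8-free cells, the split on Gad and the split on Slc6a9 and Gad. Other alternatives stayed within 1.5 times of the count. The share of VG3 cells was 1.298% at 5 or more Slc17a8 UMIs, 1.581% with no Pcp2 UMI and 1.369% after thinning, and cells with a UMI of Slc6a9, a Gad gene, both or neither were 52.85%, 23.75%, 9.744% and 33.15% after thinning. Against the Slc6a9 gate the log2 change turned to -0.0194 for Slc32a1 without the filter and to -0.0768 after thinning; for Homer2 to -0.11 in VG3 cells without a Gad UMI and -0.11 with at most 1; for Sstr2 to -0.23 without a Gad UMI; for Luzp2 to 0.0283 in batch 2; and for Gjc1 to -1.57 without a Gad UMI, -1.27 with at most 1, -0.61 without the deepest 5% of cells, -0.13 after thinning and -0.0396 in batch 2. Against the Gad gate it turned in batch 3 to 0.18 for Necab3, 0.0495 for Slc32a1 and -2.64 for Sct. The cause was not tested. With 24 to 110 VG3 cells a library, genes under about 20 CPM rest on few UMIs, as in Sdk1 and Chrm2.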
